A study of Danio rerio with 6 samples.

Results

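Regions of open chromatin that were called in one exposure only were collected from the ATAC-seq peak lists of zebrafish embryos at 50% epiboly. The peaks of 6 lists, 3 from control embryos and 3 from embryos exposed to an Ezh2 inhibitor, were merged wherever they shared at least 1 base, which gave 85003 regions. Of these, 704 regions (0.828%) had a peak in all 3 Ezh2i lists and in no control list, and 293 regions (0.345%) had a peak in all 3 control lists and in no Ezh2i list. They are called Ezh2i-only and control-only regions, and together they make 997 members. The members were chosen by the presence and absence of peaks, so their counts, heights and significance values are descriptions and carry no test.

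All samples were pools of whole AB wild type embryos collected at 5.5 hpf. The exposed embryos were kept in 5 μM PF-06726304 acetate (Ezh2i) from about the 2-cell stage, and the controls in the solvent alone, 0.05% DMSO, with 3 samples per exposure. The labels number the samples 1 to 3 in each exposure and do not say whether they came from separate clutches, so the p-values below measure the spread between these samples. In whole embryos, a larger share of cells with an open region and a more open region in each cell cannot be told apart.

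Ezh2 is the catalytic subunit of Polycomb repressive complex 2, which methylates lysine 27 of histone H3. The trimethylated mark, H3K27me3, covers many silent developmental regulator genes. At 50% epiboly the zygotic genome has been switched on and the embryo is a cap of cells spreading over the yolk. ATAC-seq uses the transposase Tn5, which inserts sequencing adapters into DNA that is free of nucleosomes, so that fragments pile up over open promoters and enhancers. A peak caller lists a place when its pile of fragments exceeds the background, and a place just below that limit in a sample is not listed in it at all.

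The authors called the peaks with MACS2 on each sample alone, at a q-value cutoff of 0.001, which is 3 on the −log10 scale. The height of a peak is the number of fragments that cover its summit base. The local background is the number of fragments expected there by the peak caller, which takes the highest of the averages over the genome and over the surrounding 10 kb of the same library. After the filtering of the peak caller the libraries held between 5894731 and 6877909 fragments, and their genome-wide background lay between 0.340 and 0.385 fragments. The paper reports that read depth was too low and that the fragment length was therefore raised to take in a nucleosome. The control lists held 50270, 52026 and 48291 peaks. The lists of Ezh2i samples 1 and 3 were longer, with 56725 and 57178 peaks, while Ezh2i sample 2 stood apart from them with 49817 peaks, within the range of the controls. The lowest height in every list was 5 fragments.

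Among the 997 members, 70.6% were Ezh2i-only, and Ezh2i-only regions outnumbered control-only regions by 2.40 to 1. The lean to Ezh2i was also present among regions that missed the rule. Regions with a peak in a single list numbered 12772 in Ezh2i and 9409 in control lists, a ratio of 1.36. In order of sample number there were 5166, 2840 and 4766 in Ezh2i and 2829, 3665 and 2915 in control lists. Ezh2i sample 2 was thus within the range of the controls. Regions with peaks in 2 lists of an exposure and none of the other numbered 3233 and 1549, a ratio of 2.09. For regions with peaks in all 3 lists of an exposure and 1 list of the other, the counts were 1992 and 898, a ratio of 2.22. The lean was absent in lists of equal length: when each list was shortened to its strongest peaks by p-value, as many as the shortest list holds, 436 regions were Ezh2i-only and 461 were control-only. Of the members named above, 379 of the 704 Ezh2i-only regions (53.8%) and 233 of the 293 control-only regions (79.5%) were still members after this shortening. Leaving out Ezh2i sample 2, the shortest Ezh2i list, gave 2415 and 528 regions.

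**Figure D1:**
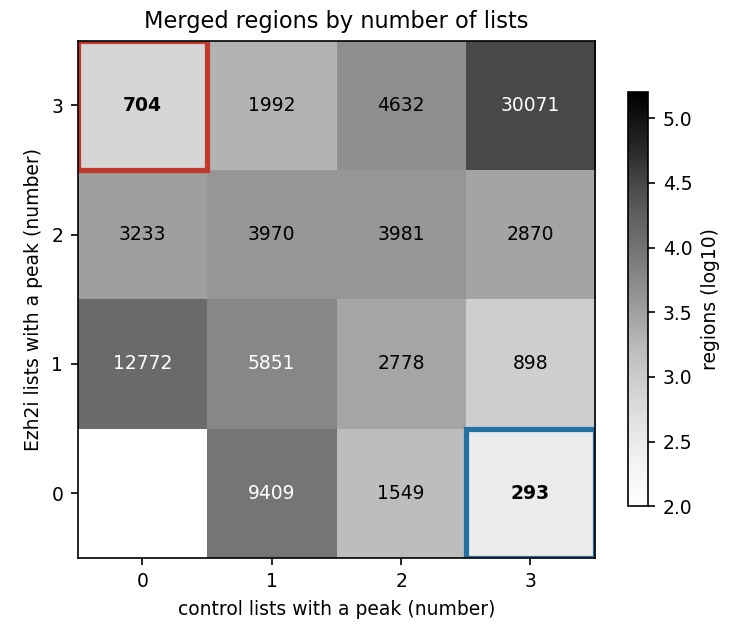
Number of merged regions by how many of the 3 control lists (horizontal axis) and of the 3 Ezh2i lists (vertical axis) held a peak, with darker squares for larger counts on a log10 scale. The outlined corners are the 704 Ezh2i-only and 293 control-only regions, and the upper right corner holds the 30071 regions found in all 6 lists.

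Most members were low and short. In the 704 Ezh2i-only regions the height, averaged over the 3 lists that hold each region, had a median of 11 fragments and ran from 6 to 34.7. In the 293 control-only regions the median was 9 fragments, with a range of 5 to 25.3. The 6748 regions with a peak in exactly 3 lists drawn from both exposures are the closest counterpart by number of lists, and their median was 9.67 fragments. Regions with a peak in all 6 lists, hereafter shared regions, numbered 30071 and had a median height of 24.5 fragments, so members of both classes had lower medians. The median length was 137 bases in Ezh2i-only, 145 in control-only and 135 in the counterpart regions, against 210 bases in shared regions.

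The 3 lists that held the members of a class gave similar median heights. The median height of Ezh2i-only regions was 11, 10 and 11 fragments in Ezh2i samples 1, 2 and 3, and that of control-only regions was 9, 10 and 9 in controls 1, 2 and 3. The tallest of the 3 heights was 1.43 times the lowest in the median Ezh2i-only region and 1.42 times in the median control-only region. It was at least 2 times the lowest in 81 (11.5%) and 19 (6.48%) of them. This ratio was not computed for other regions, so it is not read as a trait of the members. The 3 summits of a region lay within a span of 31 bases in the median Ezh2i-only region and 37 bases in the median control-only region. In the counterpart regions the median span was 34 bases. It was 40 bases in shared regions, where it covers 6 summits. In 515 Ezh2i-only regions (73.2%) and 187 control-only regions (63.8%) the summits lay less than 50 bases apart, beside 69.3% of the counterpart regions. The share was 74.8% in all merged regions. These include regions with a peak in a single list, whose span is 0 by construction, so that share is not a like measure.

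**Figure D2:**
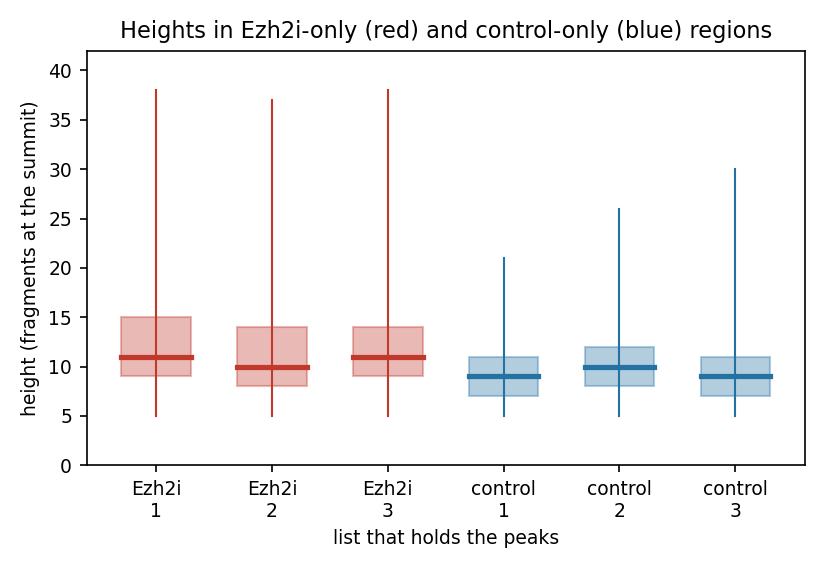
Height in fragments at the summit (vertical axis) of the 704 Ezh2i-only (red) and 293 control-only regions (blue) in each list that holds them, with the median as a thick line, the quartiles as a box and the range as a thin line. The medians lie between 9 and 11 fragments, and the tallest peaks reach 38 fragments in Ezh2i and 30 in control lists.

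The 5 tallest members of each class rose well above these medians. The tallest Ezh2i-only region, chr20:10111176-10111293, had heights of 37, 33 and 34 fragments in Ezh2i samples 1, 2 and 3. The next were chr21:5005829-5005953 with 30, 27 and 37 fragments and chr3:5963527-5963650 with 33, 28 and 31. All 3 were called in the exposed samples at heights that exceeded the median shared region, and no control list held a peak there. The remaining members of the 5 were chr23:3756638-3756767, with 31, 31 and 29 fragments, and chr8:16258656-16258772, with 38, 23 and 30. The last of these varied most among its lists. All 5 lay within 3048 bases of a shared region, and their local background, between 2.74 and 6.28 fragments, was several times the genome-wide level.

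Of the 5 tallest control-only regions, 4 lay in similar surroundings. The tallest, chr21:13689256-13689355, had 21, 25 and 30 fragments in controls 1, 2 and 3 and lay 1214 bases from a shared region. It was followed by chr6:37512516-37512622 with 18, 18 and 24 fragments, chr2:43604194-43604300 with 19, 24 and 17, and chr10:16815900-16816012 with 14, 26 and 19. The exception was chr6:20743477-20743569, with 20, 15 and 21 fragments. It lay 93406 bases from the nearest shared region, and its background of 0.366 fragments was at the genome-wide level. Its weakest list gave a −log10 q of 17.5, the highest weakest value of any control-only region.

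At the threshold of the rule, members and regions with 1 additional list of the other exposure had similar lowest values. The weakest of the 3 lists had a median −log10 q of 6.48 in Ezh2i-only and 5.63 in control-only regions, with lowest values of 3.06 and 3.03, just inside the cutoff of 3. It was under 4 in 38 Ezh2i-only and 27 control-only regions. The lowest Ezh2i-only region by this measure, chr9:46745791-46745940, had heights of 10, 5 and 9 fragments, followed by chr7:14384219-14384341 with 10, 16 and 21 and chr9:15403531-15403654 with 7, 11 and 14. The lowest control-only regions were chr8:41597121-41597281 with 5, 8 and 5 fragments, chr1:36012951-36013125 with 8, 5 and 6, and chr14:11395371-11395496 with 13, 5 and 10. Just outside the rule were the 1992 and 898 regions with 1 additional list of the other exposure. The additional peak had a median height of 10 fragments in both sets and a median −log10 q of 8.82 and 8.68, and the lowest values were 3.05 and 3.04. It was under 4 in 31 of the 1992 and 20 of the 898 regions. This value is of a single peak and that of a member is the weakest of 3, so the medians are not like measures. Also outside the rule were the 3233 Ezh2i and 1549 control regions with peaks in 2 lists of that exposure and none of the other. Their median heights were 9.5 and 8.5 fragments. The weaker of their 2 lists had a median −log10 q of 6.33 and 5.77, close to the medians of the members.

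The classes differed in where they lay relative to shared regions. The rule did not use this distance directly, but the limit of the peak caller rises with a local background that can include a nearby shared region. The distance is therefore not independent of the calls that chose the members, and the part of the background in it was not tested. The median Ezh2i-only region was 8885 bases from the nearest shared region (quartiles 1657 and 26157 bases), and the median control-only region was 14983 bases away (quartiles 6832 and 30232 bases). For the counterpart regions in exactly 3 lists of both exposures the median was 13074 bases, and shared regions were 9097 bases from the nearest other shared region. Ezh2i-only regions therefore had the shortest and control-only regions the longest median among these 4 sets. Regions that missed the rule came near both. With all 3 Ezh2i lists and 1 or 2 control lists the medians were 9585 and 10790 bases. With 1 or 2 control lists and no Ezh2i list they were 14724 and 14276 bases. With all 3 control lists and 1 or 2 Ezh2i lists they were 13037 and 12778 bases. The nearest merged region of any kind was also closer to Ezh2i-only regions, at a median of 2092 bases against 4721 bases for control-only regions. There were 8 Ezh2i-only regions on sequences without a shared region, which have no distance.

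The difference was concentrated at short range. Within 1 kb of a shared region lay 139 Ezh2i-only regions, or 19.7% (95% Wilson interval 17.0 to 22.8%), and 18 control-only regions, or 6.14% (3.92 to 9.50%). The intervals cover counting error only and regions are not replicates of an exposure. The share was 11.6% in the counterpart regions, 15.4% in shared regions and 12.5% in all merged regions. With all samples and peaks, the 2 classes thus lay on opposite sides of the background. Within 200 bases there were 43 Ezh2i-only regions (6.11%) and 3 control-only regions (1.02%), beside 3.81% of all merged and 4.43% of shared regions. Within 5 kb lay 38.2% and 17.1%, beside 29.3% of all merged and 35.5% of shared regions. At longer range the classes were closer to each other, since within 20 kb lay 65.9% and 59.0%, beside 64.7% of all merged regions. Within 100 kb lay 95.3% and 96.6%, beside 95.6% of all merged regions.

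**Figure D3:**
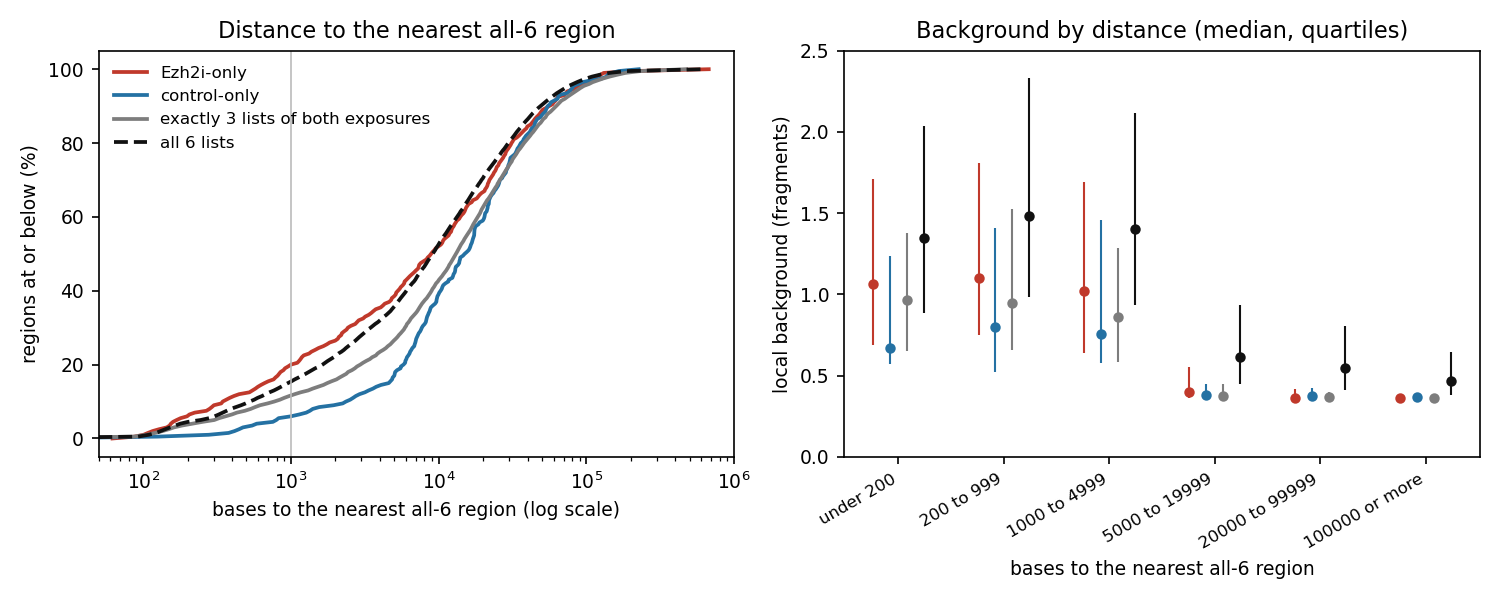
Left, cumulative share of regions in percent against the bases to the nearest shared region (named all-6 region in the plot, log axis, grey line at 1 kb); right, local background in fragments as median and quartiles by distance, in the same colours. The Ezh2i-only curve lies above the control-only curve at short distances, with 19.7% against 6.14% within 1 kb, and the background of both classes falls to about the genome-wide level beyond 5 kb.

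An example of an Ezh2i-only pair next to a shared region, chosen after its values were seen, lies on chromosome 9. The shared region chr9:12594968-12595152 had heights of 32, 30 and 36 fragments in the control lists and 33, 27 and 25 with Ezh2i. On one side, 128 bases away, the Ezh2i-only region chr9:12594705-12594839 had 12, 9 and 12 fragments, and on the other, 95 bases away, chr9:12595248-12595428 had 11, 10 and 9. The shared region itself did not pass the test between exposures (log2 difference −0.36 ± 0.20 SE, Ezh2i minus control, limma adjusted p = 0.822), with overlapping heights. The fragments of such close regions overlap in their flanks, and the part of this in the calls was not tested.

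Counted over regions, the share within 1 kb of a shared region rose with the number of Ezh2i lists and did not rise steadily with that of control lists. Regions are not replicates of an exposure, and the samples compared at the end of this paragraph overlapped. It was 7.41%, 7.36% and 6.14% in regions with peaks in 1, 2 and 3 control lists and none of Ezh2i, and 11.1%, 12.8% and 19.7% in regions with peaks in 1, 2 and 3 Ezh2i lists and none of the controls. With 1 list of the other exposure added to all 3, it was 8.46% for control and 15.6% for Ezh2i. At any given number of control lists, the share was higher with each further Ezh2i list, and in regions with a peak in all 3 control lists it ran from 6.14% with no Ezh2i list to 15.4% with 3. Regions found in a single list are members of neither class and give a value for each sample. In order of sample number, the control lists gave shares within 1 kb of 7.03%, 5.62% and 10.0%, and the Ezh2i lists gave 10.7%, 14.3% and 9.61%. The control mean was 7.56 ± 2.24% and the Ezh2i mean 11.5 ± 2.45% (SD, n = 3 each), and the groups overlapped since Ezh2i sample 3 was below control 3 (difference 3.99 percentage points, two-sided exact permutation test, p = 0.2, where 0.1 is the smallest p that 3 against 3 samples allow).

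**Figure D4:**
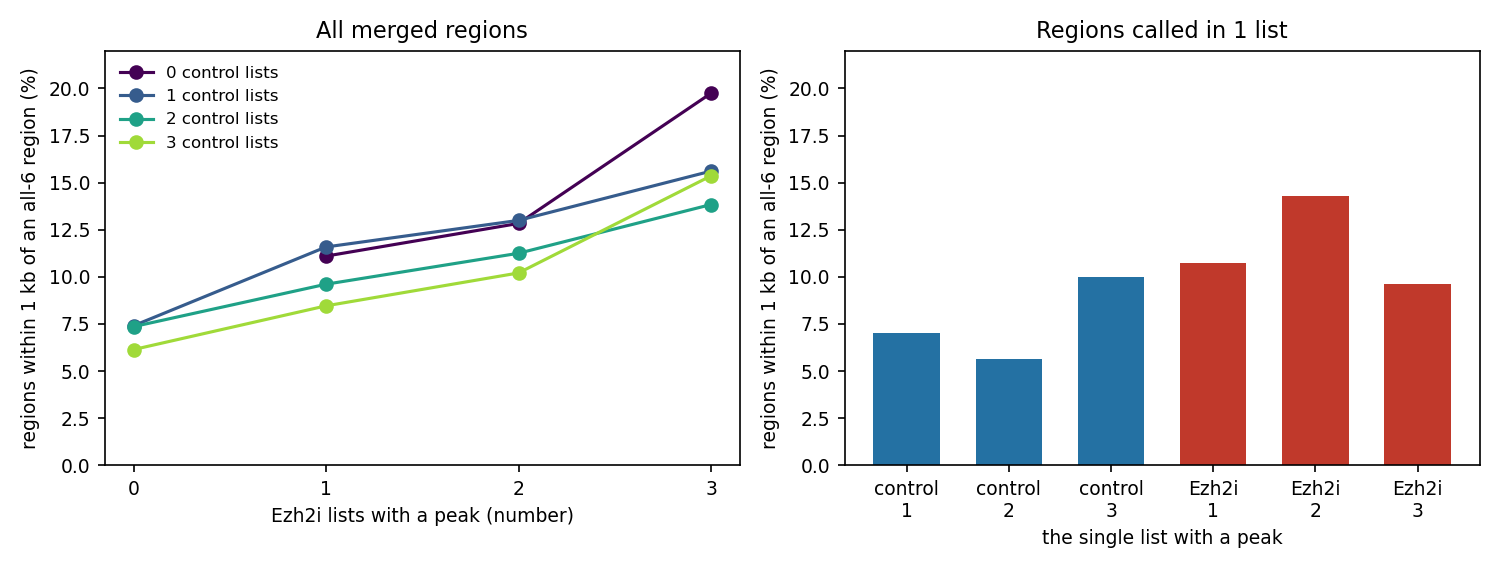
Left, share of merged regions within 1 kb of a shared region, in percent, against the number of Ezh2i lists with a peak, as 1 line for each number of control lists; right, the same share for regions held by a single list, as 1 bar per sample. Control-only regions are the lowest point of the left plot (6.14%) and Ezh2i-only regions the highest (19.7%), while the bars of control 3 (10.0%) and Ezh2i sample 3 (9.61%) overlap in order.

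The order of the classes in the 1-kb share was kept in all 13 alternatives tried, and that of the median distance in 12. Without Ezh2i sample 2 the median distances were 13021 bases for Ezh2i-only and 11481 bases for control-only regions, which turned the order, and the shares within 1 kb were 13.7% and 8.33%. With peaks of at least 120 bases alone, 397 Ezh2i-only and 171 control-only regions were found, of which 51 and 25 were among the members above, and the shares within 1 kb were 9.07% and 6.43%. With lists of equal length the shares were 18.6% and 4.99%. The share of all merged regions was not computed for the alternatives, so the position of each class against the background was not followed in them. With all samples and peaks that share was 12.5%, near the 13.7% and above the 9.07% of Ezh2i-only regions in 2 of the alternatives.

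The local background was higher in Ezh2i-only than in control-only regions. Its median was 0.482 fragments in Ezh2i-only and 0.387 in control-only regions, against 0.390 in the counterpart regions, 0.469 in all merged regions and 0.777 in shared regions. Regions with peaks in all 3 Ezh2i lists and also in 1 or 2 control lists had medians of 0.450 and 0.460 fragments. A background near that of Ezh2i-only regions was thus also found where control lists held a peak. Divided by the genome-wide level of the same library, to remove the depth, the median was 1.34 in Ezh2i-only and 1.06 in control-only regions. It was 1.08 in the counterpart regions. In 238 Ezh2i-only regions (33.8%) and 39 control-only regions (13.3%) the background was above 2 times the genome-wide level. This was so in 31.1% of all merged and 19.3% of the counterpart regions. The Ezh2i-only share was near that of all merged regions and above that of the counterpart regions. The control-only share was below both. The background was at the genome-wide level, within 0.1%, in 196 Ezh2i-only (27.8%) and 101 control-only regions (34.5%). This was so in 27.8% of all merged and 35.6% of the counterpart regions. Without Ezh2i sample 2 the median background was 0.386 fragments in Ezh2i-only and 0.401 in control-only regions, which turned the order.

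The background moved with the distance to shared regions in both classes. Ezh2i-only regions within 200 bases of a shared region had a median background of 1.06 fragments (43 regions), those from 200 bases to 1 kb 1.10 (96 regions) and those from 1 to 5 kb 1.02 (130 regions). From 5 to 20 kb the median was 0.400 fragments (195 regions), and beyond 20 kb it was 0.360, at the genome-wide level. Control-only regions showed the same step, with medians of 0.799 fragments from 200 bases to 1 kb (15 regions), 0.756 from 1 to 5 kb (32 regions) and 0.383 from 5 to 20 kb (123 regions). The lowest background of any member was 0.360 fragments in Ezh2i-only and 0.366 in control-only regions. At 5 kb or more from a shared region the medians were 0.368 fragments in Ezh2i-only and 0.375 in control-only regions, both close to the genome-wide level. In these values, not divided by the genome-wide level, the order was the opposite of that over all distances. The part of library depth in this order was not tested. That order was kept in 9 of 13 alternatives and turned in 4, which were a −log10 q of at least 5, peaks of at least 120 bases, and the lists without control 2 (0.372 and 0.362 fragments) or without control 3 (0.372 and 0.357 fragments). The height of Ezh2i-only regions fell over the same bins, from medians of 13.3, 14 and 13.8 fragments within 5 kb to 10 from 5 to 20 kb. Since the 10 kb used for the background can include the shared region, distance and background are not separate measures, and their part in the heights was not tested.

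The highest background of any member was 6.28 fragments at the Ezh2i-only region chr23:3756638-3756767, named above among the tallest, which is 17.4 times the genome-wide level. Next came chr2:33986310-33986405, with 5.25 fragments of background and heights of 23, 24 and 38, and chr3:11628418-11628647, with 4.95 fragments of background and heights of 29, 31 and 27. The latter lay 205 bases from a shared region. Among control-only regions the highest was 4.57 fragments at the tallest member, on chromosome 21. At the low end so many members tied at the genome-wide level that none was singled out.

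Heights at the shared regions nearest to the members were not used directly by the rule and were compared between exposures. A shared region close to a member can enter the background against which the member was called. Its heights are therefore not independent of the calls that chose the members. Log2 heights of the 30071 shared regions were quantile-normalized and compared with limma. No region passed a Benjamini-Hochberg adjusted p of 0.05 (smallest adjusted p = 0.746), and 1876 (6.24%) had an unadjusted p under 0.05. In heights simulated with the spread estimated for each region, a 2-fold change was recovered in 0% of 200 changed regions. A 3-fold change was recovered in 67% and a 4-fold change in 89.5%. The spread was itself estimated from 3 samples per exposure, so these values set no detection limit for the data. The absence of calls does not show that the heights were equal. The 680 shared regions nearest to an Ezh2i-only region had a mean log2 difference of 0.014 (Ezh2i minus control), and the 291 nearest to a control-only region had −0.033. All 3 Ezh2i heights were above all 3 control heights in 57 (8.38%) of the former and 17 (5.84%) of the latter, beside 5.69% of all shared regions. They were below in 37 (5.44%) and 23 (7.90%), beside 5.39% of all. Set against the mean of all shared regions in each sample, the samples of the exposures overlapped for both sets (two-sided exact permutation test, n = 3 per exposure, p = 0.2 for each). A fit that also took in regions with a peak in 3 or more lists, with missing peaks set to the lowest height of the list, called 121 of 52189 regions (0.232%), 102 of them higher in Ezh2i (0.195% of those fitted) and 19 lower (0.0364%). Of these, 102 were Ezh2i-only and 17 control-only regions, but that fit uses the absence of peaks by which the members were chosen, so nothing is read from it.

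Shared regions beside the tallest members gave similar values at single places. The shared region 1219 bases from the tallest Ezh2i-only region, chr20:10112513-10112895, had control heights of 41, 42 and 25 fragments and Ezh2i heights of 47, 42 and 47, a log2 difference of 0.24 ± 0.21 SE (limma adjusted p = 0.890). The one beside the tallest control-only region, chr21:13690570-13690884, had control heights of 81, 92 and 88 fragments and Ezh2i heights of 90, 85 and 84, a difference of −0.090 ± 0.18 SE (limma adjusted p = 0.964). In both places the heights of the exposures met or overlapped, although a region called in one exposure only lay within 1219 bases.

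The background at shared regions was also compared per sample. At the shared regions nearest to Ezh2i-only regions, the median background over the genome-wide level took control values of 2.16, 2.04 and 2.01 and Ezh2i values of 2.30, 2.15 and 2.29, in order of sample number. Ezh2i sample 2 lay below control 1, and the means of 2.07 ± 0.079 and 2.25 ± 0.082 (SD, n = 3 each) were 0.175 apart (exact permutation test, two-sided, p = 0.2, with 0.1 the smallest possible). At all shared regions the means were 2.07 ± 0.080 and 2.22 ± 0.075 (SD, n = 3 each, same exact test, p = 0.2). At those nearest to control-only regions the control values were 1.90, 1.88 and 1.80 and the Ezh2i values 1.90, 1.88 and 1.95 (same exact test, p = 0.3). The 10 kb behind a background can include a nearby member, so these tests are not independent of the calls that chose the members. As the limits of a peak caller rise with the background, these values stand beside the counts of members, and their part in the counts was not tested.

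Members lay on all 25 chromosomes, and with the full lists Ezh2i-only regions outnumbered control-only regions on each of them. With lists of equal length the totals were 436 Ezh2i-only and 461 control-only regions, and chromosomes were not counted separately in that setting. As a share of the merged regions of a chromosome, Ezh2i-only regions ranged from 0.551% on chromosome 25 (13 regions) to 1.23% on chromosome 10 (35 regions), with a median of 0.810%. Control-only regions ranged from 0.106% on chromosome 10 (3 regions) to 0.568% on chromosome 16 (20 regions), with a median of 0.351%. Chromosome 10 thus had the highest Ezh2i-only and the lowest control-only share, and 92.1% of its members were Ezh2i-only, against 59.2% on chromosome 16. The largest number of Ezh2i-only regions, 47, was on chromosome 7. The mitochondrial genome held no member.

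The long arm of zebrafish chromosome 4 is rich in repeats and poor in active genes. Beyond 25 Mb of this chromosome lay 21 Ezh2i-only regions (2.98%) and 7 control-only regions (2.39%), beside 2.04% of all merged regions, 2.31% of the counterpart regions and 1.35% of shared regions. The order of the classes there turned without Ezh2i sample 2 and with peaks of at least 120 bases. Unplaced scaffolds held 15 (2.13%) and 4 (1.37%) members, beside 1.70% of all merged regions. The members farthest from any shared region were both on chromosome 4. They were the Ezh2i-only region chr4:65857869-65858016, with 8, 9 and 9 fragments at 671827 bases, and the control-only region chr4:46546092-46546208, with 10, 8 and 9 fragments at 225449 bases. The outermost 1 Mb of the chromosomes was counted from the first and last merged region of each and chosen after seeing the data. It held 52 Ezh2i-only regions (7.39%) and 9 control-only regions (3.07%), beside 6.06% of all merged regions. The order was kept in all 13 alternatives, which share members. With peaks of at least 120 bases the shares came close, at 8.31% and 7.02%.

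**Figure D5:**
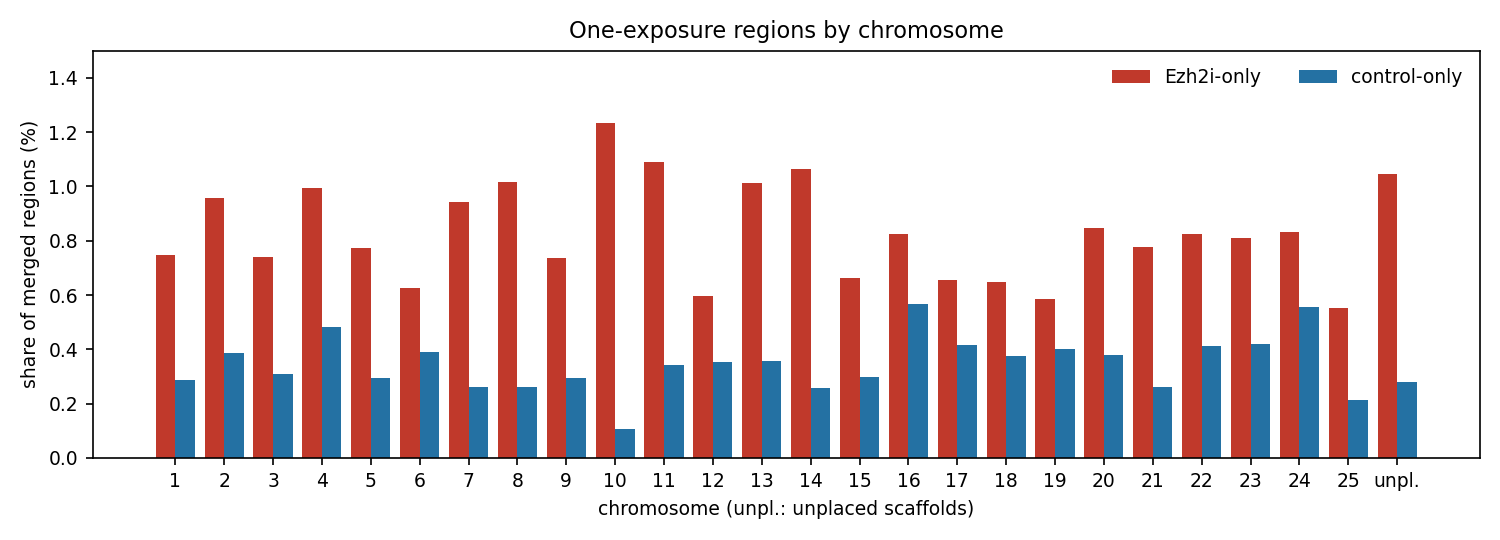
Share of the merged regions of each chromosome, in percent, that were Ezh2i-only (red) and control-only (blue), for chromosomes 1 to 25 and the unplaced scaffolds. With the full lists, which differ in length, the red bar is the taller on every chromosome, with the widest gap on chromosome 10 (1.23% against 0.106%).

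Members were mostly scattered singly. The median Ezh2i-only region was 681447 bases from the next Ezh2i-only region, close to the 654002 bases that separated the median merged region from an Ezh2i-only one. The median control-only region was 1313600 bases from its next, against 1695948 bases for merged regions. A member of the same class was the adjacent merged region for 18 Ezh2i-only (2.56%) and 6 control-only regions (2.05%), beside 1.64% and 0.687% of all merged regions that were adjacent to a member of these classes. With lists of equal length the share was 0% in Ezh2i-only regions. Of the windows of 100 kb with an Ezh2i-only region, 657 held a single one, 22 held 2 and 1 held 3, and for control-only regions 285 held a single one and 4 held 2.

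The densest window of 1 Mb was on chromosome 4 between 76 and 77 Mb, with 6 Ezh2i-only regions, no control-only region and 13 shared regions among 54 merged regions. The tallest of the 6, chr4:76336386-76336503, had 20, 14 and 20 fragments, and the lowest, chr4:76292232-76292404, had 8, 6 and 7. Another, chr4:76488270-76488473 with 16, 11 and 12 fragments, lay 807 bases from a shared region. That shared region had control heights of 28, 29 and 23 fragments and Ezh2i heights of 28, 27 and 30, so its groups overlapped. The densest 100 kb held 3 Ezh2i-only regions between 51.9 and 52 Mb on chromosome 13. They were chr13:51909720-51909818 with 11, 11 and 14 fragments, chr13:51978942-51979094 with 20, 12 and 17, and chr13:51982392-51982548 with 18, 13 and 16. The middle one lay 103 bases from a shared region with control heights of 37, 34 and 44 fragments and Ezh2i heights of 41, 34 and 42, which overlapped as well.

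Other windows of 100 kb held pairs. On chromosome 1 the Ezh2i-only regions were chr1:26372501-26372613 with 8, 12 and 7 fragments and chr1:26398260-26398392 with 11, 12 and 12. On chromosome 2, chr2:55410961-55411155 with 10, 11 and 13 fragments and chr2:55411538-55411627 with 12, 17 and 12 lay 382 bases apart, the closest pair of this class. Of the 4 windows of 100 kb with 2 control-only regions, the rule named 3. The closest control-only pair, chr16:6821873-6822100 with 9, 10 and 9 fragments and chr16:6824922-6825251 with 10, 6 and 8, lay 2821 bases apart. The other named pairs were chr11:44622190-44622301 (12, 13 and 15 fragments) with chr11:44674398-44674637 (10, 14 and 8), and chr15:23722593-23722708 (11, 18 and 13) with chr15:23729158-23729334 (7, 10 and 8).

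Members of opposite classes were rarely close to each other. There were 0 Ezh2i-only regions within 1 kb of a control-only region and 2 (0.284%) within 5 kb, beside 0.0682% and 0.268% of all merged regions. Within 100 kb of a control-only region lay 32 Ezh2i-only regions (4.55%), beside 4.98% of all merged regions, so the shares were near the background. The closest 2 pairs, chosen after their values were seen, were on chromosomes 8 and 17. On chromosome 8 the control-only region chr8:8018579-8018705, with 11, 13 and 12 fragments in controls, lay 2102 bases to one side of a shared region, and the Ezh2i-only region chr8:8023135-8023253, with 12, 9 and 11 fragments in Ezh2i samples, lay 2204 bases to the other. The shared region between them, chr8:8020808-8020930, had control heights of 15, 20 and 30 fragments and Ezh2i heights of 21, 17 and 24, and it did not pass the test (log2 difference −0.17 ± 0.26 SE, limma adjusted p = 0.950). Its heights overlapped between exposures, while the regions on its sides were each called in all samples of a single exposure.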

How the data were processed

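ATAC-seq was performed on 3 control and 3 Ezh2i samples. The authors trimmed reads with Trim Galore, aligned them with Bowtie2 to GRCz11 in snakePipes and called peaks per sample with MACS2 (2.1.1.20160309) from paired fragments, without a control library and with at most 1 duplicate per position. The deposited signal is the pileup at the summit, in whole fragments. Fold enrichment, as deposited, is a ratio in which pileup and local background each have 1 added, and the background was derived from it. It gave back the deposited p-values, on the −log10 scale within 0.01, for at least 99.9% of the peaks of each list. The deposited −log10 q-values were used as given. The pileup is the coverage of a base, so no count test was applied. Positions are on GRCz11, counted from 1.

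The members and lists were chosen with earlier results of these data known. Peaks were merged in Python 3.11.15 (pandas 2.3.3, numpy 2.4.6, scipy 1.17.1, matplotlib 3.10.9), and distances count the bases between regions. The height and background of a region are means over the lists that hold it. Shared regions were fitted with limma 3.58.1 (R 4.3.3) on quantile-normalized log2 heights of all 6 samples, without a replicate block. Both were tested on simulated data. Exact permutation tests over the samples were used for measures with a single number per sample. Between 5894731 and 6877909 fragments per library after filtering limit the precision.

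Regions named are, per class, the 5 tallest, the 3 windows of 100 kb with most members, the 3 with the highest background, the farthest from a shared region, the 3 with the lowest weakest −log10 q, and pairs of opposite classes within 1 kb, of which there were none. The rule also asked for the 3 lowest backgrounds, which are tied. The shares within 1 kb and in the outermost 1 Mb, the background at 5 kb or more, and the window of 1 Mb were chosen after seeing the data. Other alternatives were other merging rules, stricter q-values, longer peaks, lists of equal length, assembled chromosomes, other scalings, and leaving out each sample. Genes and sequences are not reported, since no annotation or genome of GRCz11 was used here.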

Additional observations from a re-analysis of the deposited data

How the results depend on the processing

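With peaks of at least 120 bases, 397 Ezh2i-only and 171 control-only regions were found, with a median distance of 15567 bases for the former, backgrounds of 0.548 and 0.420 fragments and 9.07% of Ezh2i-only regions within 1 kb. Lists of equal length gave 436 and 461 regions, 48.6% of them Ezh2i-only. Leaving out each sample in turn gave 1271 to 2415 Ezh2i-only and 528 to 929 control-only regions, of which 57.8% to 82.1% were Ezh2i-only. Median distances were then 7390 to 13021 and 11481 to 14658 bases, backgrounds 0.386 to 0.493 and 0.368 to 0.401 fragments, and shares within 1 kb 13.7% to 20.8% and 6.35% to 8.62%. Since leaving out a list relaxes the rule, counts rise by construction. The mean log2 differences were 0.0062 to 0.024 near Ezh2i-only and −0.046 to −0.018 near control-only regions, and limma called 0 shared regions without any one sample (1446 to 2364 at an unadjusted p under 0.05). The differences changed sign with fold enrichment in place of height (−0.0056 near Ezh2i-only and 2.1e-05 near control-only regions). Near Ezh2i-only regions the sign also changed in the fit of regions with at least 3 lists (−0.0035). In that fit the mean of all shared regions was −0.020, and the difference relative to it was 0.016. Near control-only regions the sign changed with heights divided by library size (0.092), where the median of all shared regions moved to 0.12. Relative to the mean of all shared regions that difference was −0.032. The cause of these changes was not tested. The fit of regions with at least 3 lists called 121 regions. With a replicate block limma called 0 shared regions (1798 at an unadjusted p under 0.05) and the mean differences stayed at 0.014 and −0.033. To look for pairing, the mean of the exposure was subtracted from the normalized log2 heights of each shared region. These deviations, which are not the heights themselves, had correlations of 0.098, −0.029 and −0.12 between same-numbered samples. Not every sample correlated best with its own number. Correlations this weak, from 3 samples per exposure, cannot decide whether the numbers pair the samples. The part of few fragments per peak in which places reached a list was not tested.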
